A study of Mus musculus with 12 samples.

Results

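The difference between PyMT mammary tumors given anti-PD-1 and tumors given an isotype antibody was followed here over both chemotherapy arms of the study. The members are all 6 anti-PD-1 tumors, 3 without and 3 with doxorubicin (DOX), and all 6 IgG1 tumors, likewise 3 and 3, chosen by their treatment labels, which takes in all 12 tumors of the series. An additive model with the antibody and doxorubicin as its terms gave 1 antibody effect for each gene, and each arm was then examined alone, because a difference that holds with and without chemotherapy has to be seen in both.

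PD-1, encoded by Pdcd1, is an inhibitory receptor on activated T cells and some other lymphocytes. When its ligands PD-L1 (Cd274) or PD-L2 (Pdcd1lg2) bind it, the phosphatase SHP-2 is recruited and signals from the T cell receptor and CD28 are damped. Antibodies that block this contact are used in cancer therapy to release T cells.

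The mice were female C57BL/6 animals in which the mouse mammary tumor virus promoter drives the polyoma middle T oncogene in mammary epithelium, so that tumors arise in every gland. In the arm without chemotherapy, treatment began when the first tumor measured 0.6 cm, with anti-mouse PD-1 (clone 4H2) or anti-mouse IgG1 at 20 mg/kg first and 10 mg/kg after that. In the arm with chemotherapy it began at 1 cm, with 5 weekly doses of doxorubicin (5 mg/kg) and 10 mg/kg of either antibody 1 day after each dose. No group went without an antibody, and the size at which treatment began, the opening antibody dose and the schedule go with doxorubicin and cannot be told apart from it. The antibody contrast is balanced over all of these. RNA of whole snap-frozen tumors was sequenced from 1 end after stranded total RNA library preparation. The series was done in triplicates, and the labels do not say whether the tumors of a group came from separate mice, so p-values measure the spread between these tumors.

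The values are TPM, a transcript abundance scaled within each tumor, for 21960 genes. The listed genes summed to between 609418 TPM in IgG1 1 and 725506 TPM in DOX/anti-PD-1 2, so their totals are not equal. Differences are given as log2 fold changes of TPM + 1, which understate differences of weakly expressed genes. No read counts were used, so the sequencing depth of a tumor is unknown. A gene was tested when at least 3 of the 12 tumors reached 1 TPM, which left 14735 genes. The tissue label was checked on luminal epithelial markers. The keratin gene Krt8 lay between 230 and 606 TPM, Krt18 between 376 and 750 TPM, Krt19 between 255 and 1801 TPM, and Epcam between 418 and 954 TPM. All 12 tumors carried these luminal epithelial transcripts at high levels, as mammary tumors do.

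The target of the antibody was barely detected in the whole-tumor RNA. Pdcd1 was listed at 0, 0.52 and 0 TPM with IgG1, 0, 0.65 and 0 TPM with anti-PD-1, 0, 2.17 and 2.09 TPM with DOX/IgG1 and 0, 0.83 and 0 TPM with DOX/anti-PD-1. It did not reach the minimum for testing, nor did Pdcd1lg2, which was listed at 0.62 TPM in DOX/IgG1 3 and at 0 in the other 11 tumors. Cd274 was measured in every tumor, at 2.88, 3.01 and 1.7 TPM with IgG1, 3.98, 1.87 and 2.75 TPM with anti-PD-1, 4.91, 7.71 and 4.38 TPM with DOX/IgG1 and 6.58, 4.78 and 3.67 TPM with DOX/anti-PD-1. The antibody groups overlapped in both arms, and the additive log2 fold change of Cd274 was -0.01 ± 0.28 (SE).

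Several tumors stood apart from the rest before any treatment was compared. DOX/IgG1 1 had correlations of 0.858 to 0.892 with the other tumors over the genes tested (Pearson r across genes), while the other 11 ranged from 0.868 to 0.956 among themselves. The erythroid genes summed to 2352 TPM in this tumor and to between 41.9 and 298 TPM in the others, with Hbb-bs at 1010 TPM as their most abundant gene. The neutrophil list summed to 7228 TPM there against 672 to 1780 TPM elsewhere, with 7185 TPM from Ltf, which mammary epithelium also makes. The neutrophil genes S100a8 and S100a9 stood at 5.27 and 0 TPM in the same tumor. Its milk protein genes had the lowest sum of all tumors, 1152 TPM. DOX/IgG1 2 had the lowest sum of mitosis genes, 729 TPM, and the highest of adipocyte genes, 2421 TPM. DOX/anti-PD-1 1 had the highest sum of skeletal muscle genes, 1959 TPM, and 2011 TPM of adipocyte genes. DOX/anti-PD-1 3 had correlations of 0.858 to 0.904, the next lowest after DOX/IgG1 1 by their median (0.888 and 0.884). All 4 tumors are from the doxorubicin arm. Values without DOX/IgG1 1, a step chosen after seeing the data, stand beside several results below, and a range in brackets after a list median gives its lowest and highest value when each tumor was left out in turn.

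**Figure D1:**
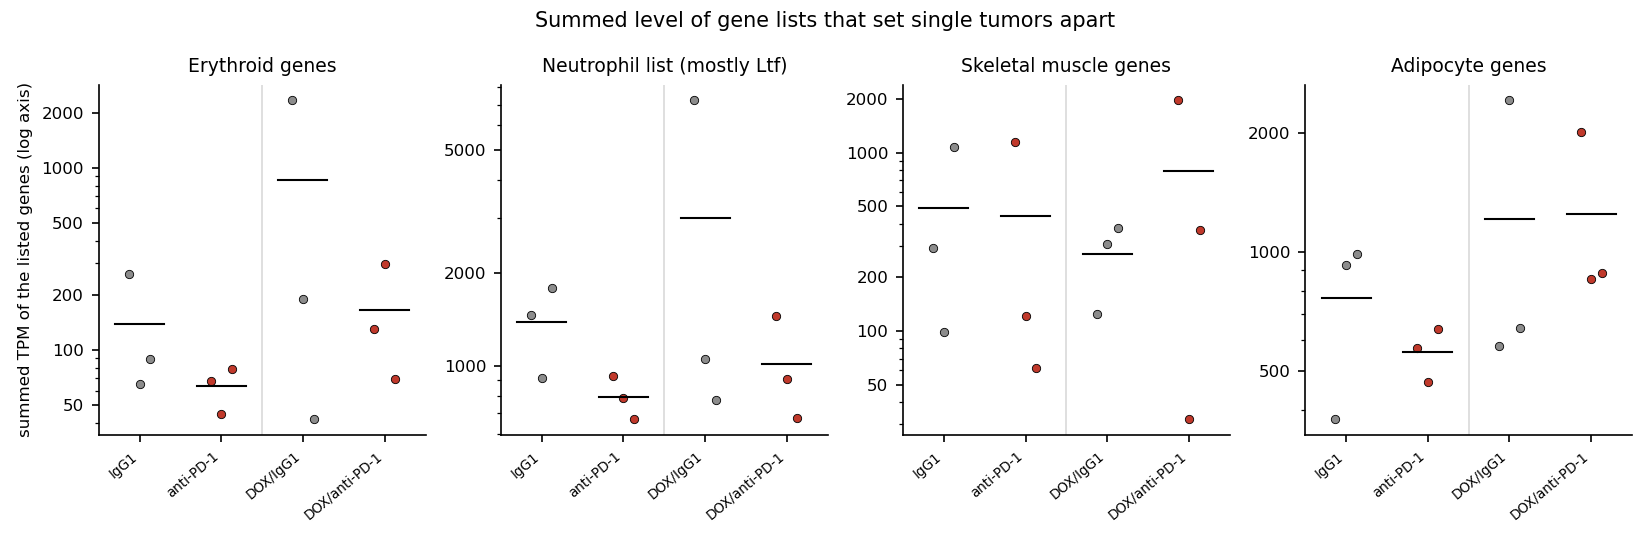
Summed TPM of the erythroid, neutrophil, skeletal muscle and adipocyte lists in each tumor (points, log axis), by group, with IgG1 in grey, anti-PD-1 in red and the group mean as a line. DOX/IgG1 1 lies far above the other tumors for the erythroid genes (2352 TPM) and the neutrophil list (7228 TPM), while muscle and adipocyte sums spread widely within groups.

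No gene passed the limits used here, log2 fold change beyond 1 in either direction with adjusted p under 0.1, for the antibody effect over both arms (limma, 0 of 14735 genes, 0%). The smallest Benjamini-Hochberg adjusted p was 0.495 in limma, that of Igfbp4. At an unadjusted p below 0.05, limma gave 262 genes that were higher with anti-PD-1 (1.78% of those tested) and 429 that were lower (2.91%), together 691 (4.69%). An exact permutation test that exchanged antibody labels within each arm gave 720 genes at p of 0.05 or less (4.89%). Its smallest possible two-sided p is 0.005, reached by 87 genes, and its smallest adjusted p over all genes was 0.847. Both shares are close to the limit itself, so the genes below are described by their values and by how the groups lie, and none of them is called changed. Without DOX/IgG1 1 the lower genes numbered 654 and the higher ones 263. Under median-of-ratios scaling they numbered 376 and 340, so the excess on the lower side depended on the scale.

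The 2 arms share no tumor, so their differences can be set side by side. Across the 14735 genes, which are not independent replicates, the log2 fold changes of the arms correlated with a Pearson r of 0.03. Both arms had the same sign for 7278 genes (49.4%), of which 3155 were higher with anti-PD-1 in both and 4123 were lower in both. At an unadjusted p below 0.05, limma gave 442 genes without doxorubicin (3% of those tested), 175 higher (1.19%) and 267 lower (1.81%). With doxorubicin it gave 938 (6.37%), 397 higher (2.69%) and 541 lower (3.67%). These lists shared 54 genes, 12.2% of the first and 5.76% of the second, and 38 of the 54 had the same direction in both arms, 10 higher and 28 lower.

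A smaller number of genes held their order in every tumor. For 35 genes (0.238% of those tested) the 3 anti-PD-1 tumors all lay above the 3 IgG1 tumors in each arm, and for 52 genes (0.353%) they all lay below. These 87 genes are those at the smallest exact permutation p, 0.005. Exchange of antibody labels alone thus places a gene in this group at a rate of 0.005 over both directions. The shares together are close to that rate, so the number of these genes is not a result about them. In a single arm, 529 genes (3.59%) lay above and 888 (6.03%) below without doxorubicin, and 605 (4.11%) above and 850 (5.77%) below with it. For 13 genes (0.0882%) all 6 anti-PD-1 tumors lay above all 6 IgG1 tumors whatever the arm, and for 17 genes (0.115%) all 6 lay below. Leaving out a tumor makes it easier for groups to lie apart. The higher genes then numbered 55 without IgG1 1, IgG1 3, DOX/IgG1 3 or DOX/anti-PD-1 1, 59 without anti-PD-1 2, 68 without anti-PD-1 1, 70 without DOX/anti-PD-1 3 and 71 without IgG1 2. The lower genes rose in number the most without IgG1 1, to 146, and without DOX/IgG1 1, to 137, and lay between 75 and 104 without any other single tumor. The genes described next are those of this group with a mean of at least 5 TPM and the smallest p in the additive model, 12 in each direction.

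**Figure D2:**
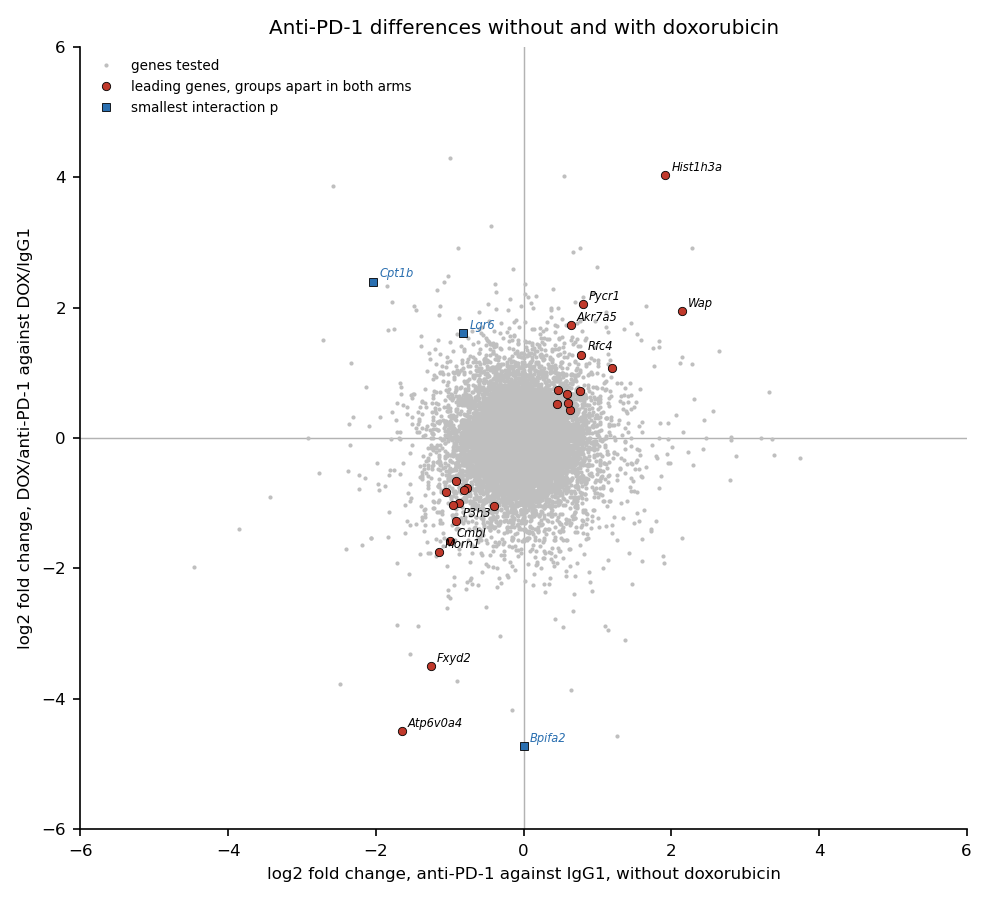
Log2 fold change of anti-PD-1 against IgG1 tumors without doxorubicin (x axis) and with doxorubicin (y axis) for all 14735 genes tested (grey), with the 24 leading genes in red and the 3 genes of smallest interaction p at a mean of at least 5 TPM in blue. The cloud shows no common axis (r = 0.03). The leading genes lie away from 0 in the same direction on both axes because they were chosen that way.

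Among the 12 leading genes that were higher with anti-PD-1, Pole2, Rfc4 and Rad21 act on DNA or on sister chromatids. Pole2, a subunit of the leading-strand DNA polymerase epsilon, stood at 3.16, 5.39 and 4.96 TPM with IgG1 against 11.6, 16.4 and 7.7 TPM with the PD-1 antibody, and at 2.68, 4.47 and 6.6 TPM against 7.75, 10.4 and 13.1 TPM with doxorubicin. All 6 anti-PD-1 tumors lay above all 6 IgG1 tumors, with an additive log2 fold change of 1.13 ± 0.28 (SE). Rfc4, a subunit of the clamp loader that places PCNA on DNA, measured 13, 21 and 19.4 TPM against 26.2, 34.3 and 32.1 TPM without doxorubicin, and 13.8, 12.8 and 17.2 TPM against 54.5, 47.8 and 18.6 TPM with it. The groups lay apart in each arm, and DOX/anti-PD-1 3 was the lowest treated tumor, close to its controls. Rad21, a subunit of the cohesin ring that holds sister chromatids together, ranged from 93.3 to 110 TPM against 72.1 to 76.1 TPM without doxorubicin and from 82.7 to 114 TPM against 57.9 to 71.3 TPM with it. Its log2 fold change was small, 0.48 ± 0.14 (SE), but the 6 tumors of each antibody did not overlap. Exons of Pole2 overlap Gm49384 on the same strand and those of Rfc4 overlap Eif4a2 on the other, so part of their values is uncertain.

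The histone gene Hist1h3a was listed at 8.17, 13.1 and 0 TPM with IgG1 and 19.6, 14.5 and 21.1 TPM with anti-PD-1, and at 0 in all 3 DOX/IgG1 tumors against 18.2, 21.4 and 9.34 TPM with DOX/anti-PD-1. The groups lay apart in each arm. It belongs to a family of near-identical histone genes, so reads may have been split among copies and these values are uncertain. Polr2k, a small subunit shared by the RNA polymerases (chr15:36174010-36177010, GRCm38), stood at 33.8, 23.6 and 28.6 TPM against 40.8, 52.6 and 54.2 TPM, and with doxorubicin at 36.6, 34.9 and 31.8 TPM against 70.6, 50.8 and 52.8 TPM. The antibody groups did not overlap, and the difference was nearly equal in the arms, 0.76 without and 0.72 with doxorubicin on the log2 scale.

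The higher genes also included several enzymes. Acsl4, which activates arachidonic acid and related fatty acids for incorporation into phospholipids (chrX:142317993-142390535), measured 73.6, 100 and 81.5 TPM with IgG1, 139, 122 and 123 TPM with anti-PD-1, 57.6, 74.7 and 79 TPM with DOX/IgG1 and 107, 122 and 106 TPM with DOX/anti-PD-1. Every anti-PD-1 tumor exceeded every IgG1 tumor, by 0.63 ± 0.14 (SE) on the log2 scale. Lclat1, a lysocardiolipin acyltransferase, spanned 44.6 to 65.9 TPM over the anti-PD-1 tumors of both arms and 30.8 to 39.1 TPM over the IgG1 tumors. Akr7a5, an aldo-keto reductase that reduces aldehydes (chr4:139310744-139318426), stood at 6.32, 7.2 and 5.8 TPM against 10.2, 10.9 and 10.4 TPM, and at 1.79, 6.58 and 5.6 TPM against 13.3, 18.5 and 17.1 TPM with doxorubicin. The groups were again fully apart, and the difference was larger with doxorubicin (1.73) than without (0.64 on the log2 scale), a contrast that was not called by the interaction test.

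Pycr1, which makes proline in mitochondria, had an additive log2 fold change of 1.42 ± 0.34 (SE), with 13.9 to 14.8 TPM against 5.46 to 13.6 TPM without doxorubicin and 8.22 to 21 TPM against 1.22 to 3.8 TPM with it. IgG1 3, at 13.6 TPM, nearly reached its treated counterparts. Slc35b2, which carries the sulfate donor PAPS into the Golgi, and Zdhhc4, a palmitoyltransferase whose exons overlap a gene on the other strand, were higher by 0.53 and 0.57 on the log2 scale. The milk gene Wap completes the 12 and was low throughout, at 2.68, 6.1 and 0 TPM against 10.5, 18.9 and 8.79 TPM, and at 0, 1.79 and 0 TPM against 8, 2.64 and 3.92 TPM with doxorubicin. Its groups lay apart in each arm at these low levels.

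**Figure D3:**
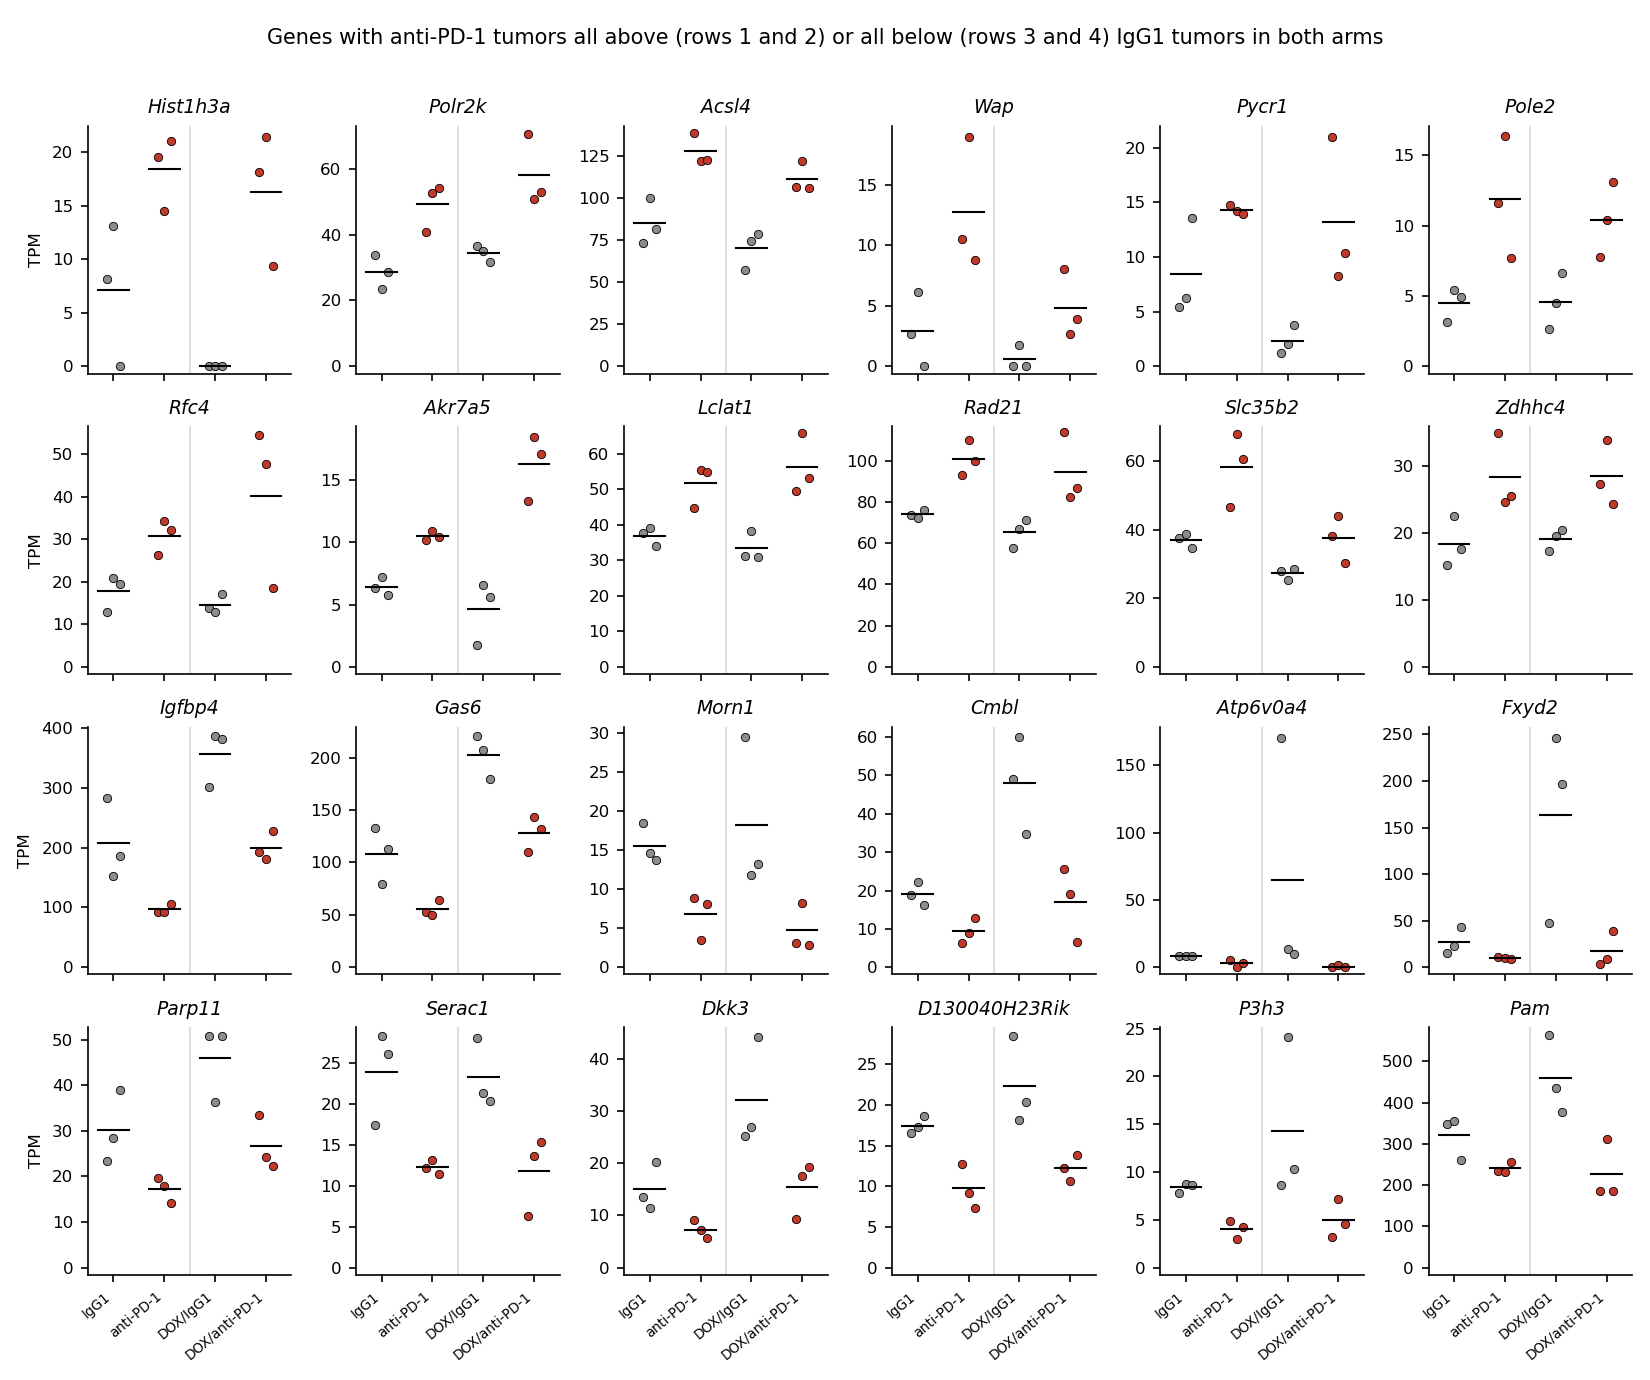
TPM of the 24 leading genes in each tumor (points), by group, with IgG1 in grey, anti-PD-1 in red and the group mean as a line. Genes are ordered by p in the additive model within each direction, and in each panel the 3 anti-PD-1 tumors of an arm lie all above or all below its 3 IgG1 tumors.

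Of the 12 leading genes that were lower with anti-PD-1, Igfbp4, Gas6 and Dkk3 encode secreted proteins. Igfbp4, a secreted protein that binds insulin-like growth factors and limits their access to receptors (chr11:99041244-99054392), had the smallest p of all genes tested. It stood at 283, 153 and 186 TPM with IgG1 against 92.6, 92.8 and 105 TPM with anti-PD-1, and at 301, 387 and 382 TPM against 192, 180 and 227 TPM with doxorubicin. The groups were apart in each arm but not across arms, since DOX/anti-PD-1 tumors were higher than 1 or more IgG1 tumors without doxorubicin. Its additive log2 fold change was -0.94 ± 0.17 (SE), close in the arms at -1.05 and -0.83, with an adjusted p of 0.495 in limma.

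Gas6, the secreted ligand of the TAM receptor tyrosine kinases Tyro3, Axl and Mertk, measured 133, 79.7 and 113 TPM against 53.2, 50.2 and 63.8 TPM, and 221, 207 and 180 TPM against 110, 143 and 132 TPM with doxorubicin. Anti-PD-1 tumors were the lower ones in both arms, with a log2 fold change of -0.79 ± 0.16 (SE). Exons of Gas6 overlap Tmem255b on the other strand. Its receptor gene Mertk, expressed by macrophages, was also lower, at -0.56 ± 0.23 (SE), although its groups overlapped without doxorubicin.

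Dkk3, a secreted glycoprotein related to Wnt inhibitors, lay between 5.62 and 9.07 TPM against 11.5 and 20.2 TPM without doxorubicin and between 9.29 and 19.3 TPM against 25.2 and 44.1 TPM with it. The log2 fold change was -0.99 ± 0.25 (SE). P3h3, which belongs to the prolyl 3-hydroxylase family acting on collagen, was lower by a similar amount, -1.09 ± 0.29 (SE), and all 6 anti-PD-1 tumors (3.02 to 7.21 TPM) lay below all 6 IgG1 tumors (7.83 to 24.1 TPM). Pam, which amidates peptide hormones, ranged from 232 to 257 TPM against 261 to 356 TPM and, with doxorubicin, from 185 to 311 TPM against 378 to 564 TPM. Its exons overlap B230216N24Rik on the same strand.

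Of the remaining lower genes, Cmbl, an enzyme of the dienelactone hydrolase family, stood at 18.7, 22.1 and 16.3 TPM against 6.44, 8.81 and 12.8 TPM, and at 49.1, 60 and 34.7 TPM against 25.5, 19 and 6.68 TPM with doxorubicin. Its groups lay apart in each arm, at -1.28 ± 0.30 (SE) on the log2 scale. Parp11, a mono-ADP-ribosyltransferase, differed by -0.77 in each arm, and Serac1, which remodels phosphatidylglycerol and overlaps Synj2 on the other strand, by -0.94 ± 0.23 (SE). Morn1 and D130040H23Rik, whose functions are little known, differed by -1.45 ± 0.32 (SE) and -0.81 ± 0.20 (SE).

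The lower genes with the largest differences were unevenly expressed within groups. Fxyd2, a regulator of the sodium pump, measured 15.5, 23.2 and 43.7 TPM against 10.8, 9.57 and 9.36 TPM, and 47.1, 246 and 197 TPM against 3.21, 8.75 and 39 TPM with doxorubicin. It was low in all anti-PD-1 tumors without doxorubicin, and its with-doxorubicin difference of -3.50 made up most of the additive -2.38. Atp6v0a4, a subunit of the vacuolar proton pump, stood at 8.64, 8.13 and 8.37 TPM against 5.29, 0 and 3.21 TPM, and at 170, 13.8 and 10.1 TPM against 0, 1.49 and 0 TPM with doxorubicin. The value of 170 TPM is that of DOX/IgG1 1, and without this tumor the additive log2 fold change was -2.36 in place of -3.07. Its exons overlap D630045J12Rik on the same strand, so the value is uncertain.

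Most genes of DNA replication and of mitosis had a positive log2 fold change with anti-PD-1 in each arm. Genes of such a list are not independent replicates. Only 2 replication genes and 0 mitosis genes lay apart on the higher side in both arms. Of 61 replication genes tested, 52 (85.2%) had a positive additive log2 fold change, against 45.6% of all genes tested. Their median was 0.23, with 0.21 without and 0.38 with doxorubicin, against -0.03 over all genes, and 34 were higher and 3 lower in both arms, where all genes tested gave 21.4% and 28%. At an unadjusted p below 0.05, limma placed 13 of them (21.3%) on the higher side and 0 on the lower side, beside 1.78% and 2.91% of all genes. The exact permutation test was not summarised over the list, and no list was tested as a set. Members described singly, here and for the lists below, are mostly those of smallest additive p in their list, so they are not typical members. The 13 fell to 7 when anti-PD-1 2, DOX/IgG1 2, DOX/IgG1 3, DOX/anti-PD-1 1 or DOX/anti-PD-1 2 was left out, and stayed 13 without DOX/IgG1 1. Under median-of-ratios scaling 56 of the 61 were higher.

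In single tumors, the mean log2(TPM + 1) of the replication genes was 4.01, 4.15 and 4.08 with IgG1 and 4.24, 4.40 and 4.33 with anti-PD-1, and 4.23, 3.75 and 3.95 with DOX/IgG1 against 4.52, 4.55 and 4.10 with DOX/anti-PD-1. The groups lay apart without doxorubicin and overlapped with it, where DOX/anti-PD-1 3 fell below DOX/IgG1 1. Uhrf1, which keeps DNA methylation on newly replicated DNA, stood at 17, 22 and 20.5 TPM against 20.7, 28.7 and 30.1 TPM, and at 15.5, 6.55 and 16.1 TPM against 35.1, 42.8 and 22.1 TPM with doxorubicin. Its groups overlapped in the first arm and were apart in the second. Lig1, the ligase that seals Okazaki fragments, overlapped without doxorubicin (24.1 to 33.4 TPM against 24.6 to 27.4 TPM) and lay apart with it (29.4 to 39.3 TPM against 15 to 17.8 TPM). Exons of Lig1 overlap Zswim9 on the other strand.

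The mitosis and spindle genes followed the same direction with a wider spread. Of 56 tested, 52 (92.9%, beside 45.6% of all genes) were higher, 36 were higher in both arms and 1 was lower in both. The median was 0.38, with 0.24 without and 0.59 with doxorubicin, or 0.93 with it when DOX/IgG1 1 was left out. Limma gave 4 of them (7.14%, beside 1.78% of all genes) on the higher side at an unadjusted p below 0.05 and 0 on the lower. On the higher side it gave 12 without DOX/IgG1 1, 9 without DOX/anti-PD-1 3 and 7 without IgG1 3 or anti-PD-1 1. Over all genes tested the higher ones numbered 262, and 263 without DOX/IgG1 1. The median was 0.52 without DOX/IgG1 1 and 0.20 without DOX/IgG1 2, the tumor with the lowest mitosis sum. Means per tumor overlapped in both arms, at 4.12, 4.41 and 4.40 against 4.41, 4.76 and 4.41, and at 4.55, 3.18 and 3.94 against 4.78, 4.68 and 3.80 with doxorubicin.

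Pbk, a mitotic kinase, lay apart without doxorubicin, at 16.9, 16.9 and 18.6 TPM against 33.2, 49.1 and 33.1 TPM. With doxorubicin it stood at 12.7, 6.39 and 18 TPM against 39.4, 30.5 and 10.2 TPM, so that DOX/anti-PD-1 3 lay among the controls. Spc25, of the kinetochore complex that binds microtubules, measured 33.7, 31.1 and 49.8 TPM against 58.8, 74.3 and 44.8 TPM, and 39.1, 17.2 and 36.5 TPM against 91, 59.1 and 52.1 TPM. Its groups overlapped only without doxorubicin, through IgG1 3. Cdca5, the cohesion factor sororin, was weakly expressed, at 0.61 to 1.4 TPM against 2.23 to 4.83 TPM and, with doxorubicin, 0.83 to 1.17 TPM against 0.98 to 4.6 TPM. Nusap1, which binds spindle microtubules and overlaps Oip5 on the other strand, differed by 0.77 ± 0.23 (SE). In bulk tumor RNA, a different share of cycling cells and a different amount of RNA per cell cannot be told apart.

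The promoters of the replication and mitosis genes were also read for the letters of known cell cycle elements. Sequences are from RefSeq on GRCm38.p6, from 250 bases before the start site used, and were searched to 50 bases after it on both strands. That site was not always the GENCODE start of the gene. For Uhrf1 the window printed below begins after the GENCODE start, chr17:56303321. The E2F site, bound by the E2F factors that act at the start of DNA synthesis, was searched as TTTCCCGC, TTTCGCGC, TTTGCCGC or TTTGGCGC. It was present for 21 of the 51 replication genes with a promoter in the reference (41.2%) and for 704 of all 27025 genes with one (2.6%). The cell cycle homology region, TTTGAA, an element of late cell cycle genes, was present for 34 of 47 mitosis genes (72.3%) and 5466 of all genes (20.2%). These shares count all members with a promoter whatever their log2 fold change, so they describe the lists and say nothing about the antibody. Such a match describes the letters and does not show that a factor binds there. The promoters of 4 genes described above are printed to 30 bases after the start, with the matches in capitals, read on the strand of the gene. They are those of Pole2 (chr12:69228161-69228440, minus strand) and Uhrf1 (chr17:56304063-56304342, plus strand) with an E2F match, in Pole2 on the opposite strand, and those of Spc25 (chr2:69206184-69206463, minus strand) and Cdca5 (chr19:6084847-6085126, plus strand) with TTTGAA.
Pole2: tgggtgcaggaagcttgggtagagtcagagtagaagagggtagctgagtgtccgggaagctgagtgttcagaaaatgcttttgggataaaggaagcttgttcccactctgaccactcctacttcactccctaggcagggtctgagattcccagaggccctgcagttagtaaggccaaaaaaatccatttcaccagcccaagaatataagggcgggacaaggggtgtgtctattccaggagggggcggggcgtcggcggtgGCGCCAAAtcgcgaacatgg
Uhrf1: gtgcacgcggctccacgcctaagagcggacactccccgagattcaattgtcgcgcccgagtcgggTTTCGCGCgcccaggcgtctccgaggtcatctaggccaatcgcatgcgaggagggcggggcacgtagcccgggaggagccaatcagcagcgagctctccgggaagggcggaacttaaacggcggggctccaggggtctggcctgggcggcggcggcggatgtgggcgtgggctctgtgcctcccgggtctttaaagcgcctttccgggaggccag
Spc25: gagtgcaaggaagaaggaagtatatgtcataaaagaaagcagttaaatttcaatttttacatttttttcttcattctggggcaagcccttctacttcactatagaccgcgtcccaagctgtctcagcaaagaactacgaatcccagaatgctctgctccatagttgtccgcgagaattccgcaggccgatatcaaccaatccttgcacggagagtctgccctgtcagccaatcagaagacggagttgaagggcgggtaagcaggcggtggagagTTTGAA
Cdca5: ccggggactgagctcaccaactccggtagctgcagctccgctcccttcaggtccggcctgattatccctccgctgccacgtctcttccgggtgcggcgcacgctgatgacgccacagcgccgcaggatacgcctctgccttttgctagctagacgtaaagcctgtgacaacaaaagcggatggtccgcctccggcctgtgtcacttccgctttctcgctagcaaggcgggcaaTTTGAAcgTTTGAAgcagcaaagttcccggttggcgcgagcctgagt
The Cdca5 window holds 2 matches next to each other, and the matches of Pole2 and Spc25 lie just after the start.

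**Figure D4:**
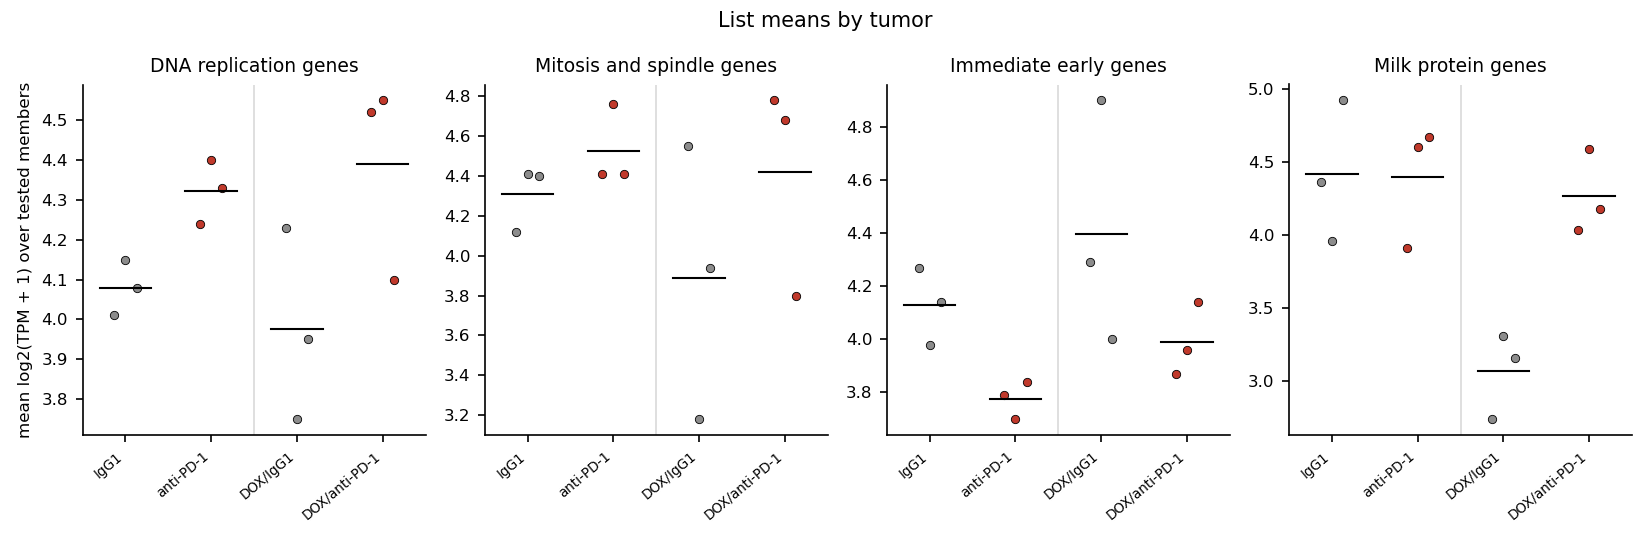
Mean log2(TPM + 1) over the tested members of 4 gene lists in each tumor (points), by group, with IgG1 in grey, anti-PD-1 in red and the group mean as a line. Replication genes lie apart without doxorubicin (4.24 to 4.40 against 4.01 to 4.15) and immediate early genes lie apart in the other direction (3.70 to 3.84 against 3.98 to 4.27). Milk gene means lie apart with doxorubicin (4.03 to 4.59 against 2.74 to 3.31) and overlap without it.

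Immediate early genes, which cells transcribe within minutes of a growth or stress signal, were mostly lower with anti-PD-1. Of 25 tested, 22 were lower in the additive model and 12% were higher, beside 45.6% of all genes. In both arms 15 were lower (60%, beside 28% of all genes) and 1 was higher (4%, beside 21.4%). The median was -0.32 over both arms, -0.34 without and -0.45 with doxorubicin. At an unadjusted p below 0.05, limma gave 6 on the lower side (24%, beside 2.91% of all genes) and 0 on the higher side, and 7 without DOX/IgG1 1. Means per tumor were 4.27, 3.98 and 4.14 against 3.79, 3.70 and 3.84 without doxorubicin, and 4.29, 4.90 and 4.00 against 3.87, 3.96 and 4.14 with it. The groups were apart in the first arm and overlapped in the second. Without DOX/IgG1 2, the tumor with the highest mean, the median was -0.14.

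Fosb, a subunit of the AP-1 transcription factor, stood at 18.1, 12.1 and 6.5 TPM with IgG1 and 1.35, 1.37 and 2.56 TPM with anti-PD-1, and at 27.2, 17.6 and 6.74 TPM with DOX/IgG1 against 3.56, 2.18 and 8.25 TPM with DOX/anti-PD-1. The groups were far apart without doxorubicin, and with it DOX/anti-PD-1 3 exceeded DOX/IgG1 3. The additive log2 fold change was -1.91 ± 0.38 (SE), with an exact permutation p of 0.01. Fos, its partner gene, measured 73.9, 160 and 145 TPM against 56.3, 55.1 and 81.6 TPM, and 258, 342 and 148 TPM against 131, 49.7 and 229 TPM, so both arms overlapped. Its log2 fold change was -0.97 ± 0.33 (SE). Junb, whose exons overlap Prdx2 on the other strand, and Btg2, an antiproliferative gene that p53 also induces, were lower by smaller amounts, at -0.54 ± 0.19 (SE) and -0.68 ± 0.23 (SE). How long each tumor waited before freezing is not given, and its part in these genes was not tested.

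Lists of other stress programs were also examined. Of 26 p53 target genes, 23 were lower and 11.5% were higher, beside 45.6% of all genes. In both arms 13 were lower (50%, beside 28% of all genes). Medians were -0.09 without and -0.43 with doxorubicin, but only Btg2 reached an unadjusted p below 0.05 in limma. Without DOX/IgG1 1 the median over both arms moved from -0.27 to -0.15, that with doxorubicin moved from -0.43 to -0.19, and 18 of the 26 were lower. Heat shock genes had a median of -0.13 (range -0.21 without IgG1 2 to -0.05 without DOX/anti-PD-1 3), and 37.5% were higher, beside 45.6% of all genes. Hspa1b, the inducible HSP70, was 103, 37.1 and 56.9 TPM against 46.5, 29.9 and 40.8 TPM, and 65.5, 73.1 and 50.1 TPM against 39.3, 30.4 and 37.9 TPM with doxorubicin. It lay apart only in the doxorubicin arm. Dnajb4, a co-chaperone, showed the same order, with -0.23 without and -1.42 with doxorubicin. Of 28 hypoxia and glycolysis genes 35.7% were higher, with a median of -0.08, but the median was 0.01 without DOX/IgG1 1 or DOX/anti-PD-1 3 and -0.18 without anti-PD-1 3 or DOX/anti-PD-1 2, and without DOX/IgG1 1 16 genes were higher. Pfkfb3, an activator of glycolysis, differed by -0.65 in each arm while its groups overlapped with doxorubicin. Its highest value, 267 TPM, was that of DOX/IgG1 1, and without this tumor the additive difference moved from -0.65 to -0.42.

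Milk protein genes were higher with anti-PD-1 mainly in the doxorubicin arm. Of 12 tested, 10 were higher over both arms, with a median of 0.47 (range 0.29 without DOX/anti-PD-1 2 to 0.76 without IgG1 3), and the medians of the arms were 0.13 and 1.32. The mean over the list pointed the other way without doxorubicin, at 4.41 with IgG1 and 4.39 with anti-PD-1, whereas with it the means were 3.07 and 4.27 and all tumors lay apart. Limma gave 3 of the 12 (25%, beside 1.78% of all genes) at an unadjusted p below 0.05 on the higher side, 0 on the lower side, 2 without anti-PD-1 2, DOX/anti-PD-1 1 or DOX/anti-PD-1 2, and 3 without DOX/IgG1 1. Lalba, the regulatory subunit of lactose synthase (chr15:98480400-98482721), stood at 343, 236 and 375 TPM against 371, 980 and 341 TPM, and at 6.6, 134 and 60.4 TPM against 340, 443 and 158 TPM with doxorubicin. The first arm overlapped and the second did not, and the additive log2 fold change moved from 1.77 to 1.11 without DOX/IgG1 1. Csn3, the most abundant gene of the list, ranged from 2669 to 7864 TPM with DOX/anti-PD-1 and from 812 to 3071 TPM with DOX/IgG1, where the groups overlapped.

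The lists of T cell, regulatory T cell and macrophage genes had negative medians in both arms. Among T cell markers Cd3e lay between 0 and 24.6 TPM over all 12 tumors, Cd3g between 0 and 15.1 TPM, Cd4 between 0 and 7.51 TPM and Cd8a between 0 and 5.57 TPM, and Cd3d was at 0 in 7. Of 18 T cell genes tested, 15 were lower and 16.7% were higher, beside 45.6% of all genes. In both arms 9 were lower (50%, beside 28% of all genes). The median was -0.21 over both arms, -0.19 without and -0.31 with doxorubicin. Under settings other than leaving out a tumor, the median over both arms ranged from -0.62 to -0.18. Cd8a was listed at 0.88, 1.04 and 1.73 TPM against 0, 0.83 and 1.16 TPM, and at 1.16, 5.57 and 3.63 TPM against 0.96, 2.46 and 0.87 TPM with doxorubicin, overlapping in both arms. Cd3g was listed at 1.56, 0 and 0 TPM against 1.65, 2.7 and 4 TPM, and at 2.29, 8.01 and 11.5 TPM against 7.56, 2.27 and 15.1 TPM with doxorubicin. It lay on the other side, with the groups apart without doxorubicin and overlapping with it, at 0.76 ± 0.48 (SE). At an unadjusted p below 0.05, limma placed 1 T cell gene on the lower side (5.56%, beside 2.91% of all genes) and 0 on the higher. This was Cd27, a costimulatory receptor whose exons overlap Mir8113 on the same strand, at -1.16 ± 0.50 (SE). Its value of 173 TPM in DOX/IgG1 1 was the highest of all tumors, and without this tumor the difference was -0.79. The T cell median without DOX/IgG1 1 was -0.42, and -0.70 within the doxorubicin arm. There were then 3 T cell genes on the lower side at that limit, while over all genes tested they went from 429 to 654.

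Of the components of PD-1 signaling in T cells, 20 of 25 genes were lower and 20% were higher, beside 45.6% of all genes. Their median was -0.15 (range -0.27 without IgG1 3 or DOX/IgG1 1 to -0.01 without DOX/IgG1 2). The exception at an unadjusted limma p below 0.05 was Prkcq, the kinase PKC-theta downstream of CD28, which was higher by 0.81 ± 0.33 (SE) at levels of 0.69 to 7.04 TPM and passed the limit no longer without DOX/IgG1 1. Among 20 checkpoint genes tested the median was -0.08, with -0.11 without and 0.11 with doxorubicin, with a range of -0.21 without DOX/IgG1 1 to 0.00 without IgG1 1. Within the doxorubicin arm the median was -0.26 when DOX/IgG1 1 was left out. At that limit 1 was lower (5%, beside 2.91% of all genes) and 0 higher, or 3 and 0 without DOX/IgG1 1. Over all genes tested the lower ones then also went from 429 to 654. The 1 gene was Havcr2, which encodes TIM-3, at 8.33, 8.44 and 8.6 TPM against 8.94, 8.1 and 5.74 TPM, and at 7.08, 11.2 and 16.6 TPM against 5.11, 5.33 and 3.98 TPM. It overlapped without doxorubicin and was lower in all 3 DOX/anti-PD-1 tumors. NK cell and cytotoxic genes had a median of -0.12 (12 of 18 lower and 33.3% higher, beside 45.6% of all genes). It was -0.39 without DOX/IgG1 1, and above 0 without IgG1 2 (0.05), DOX/IgG1 2 (0.04) or anti-PD-1 1 (0.01). Regulatory T cell genes had -0.26 (range -0.35 without anti-PD-1 1 to -0.15 without DOX/anti-PD-1 3), with 5 of 8 lower and 37.5% higher. Neither list held a gene at that limit, and each held 1 on the lower side without DOX/IgG1 1. For B and plasma cell genes, 5 of 15 listed could be tested, with a median of 0.01 (range -0.38 without DOX/IgG1 1 to 0.24 without DOX/IgG1 3), and Cd79a was at 0 in 9 of the 12 tumors.

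Macrophage markers summed to between 1070 and 2809 TPM and T cell markers to between 57.7 and 223 TPM. Single members carry much of these sums, with Spp1 at a mean of 764 TPM among the macrophage markers and Cd27 at 173 of the 223 TPM in DOX/IgG1 1. Csf1r lay between 26.9 and 42.1 TPM and C1qa between 77.9 and 167 TPM. Of 21 macrophage genes tested, 15 were lower and 28.6% were higher, beside 45.6% of all genes. In both arms 11 were lower (52.4%, beside 28% of all genes). The median was -0.24 (range -0.35 without DOX/anti-PD-1 2 to -0.12 without DOX/IgG1 2). Cd68 stood at 14.4, 13.5 and 12.2 TPM against 4.07, 8.35 and 9.14 TPM, and at 20.7, 12.5 and 11.4 TPM against 10.9, 13.3 and 5.63 TPM with doxorubicin, so it was apart in the first arm and overlapped in the second. The Fc receptor gene Fcgr1 lay on the other side, at 0.91 ± 0.40 (SE), with 1.60 in the doxorubicin arm and 0.22 in the other. At an unadjusted p below 0.05, limma gave 1 macrophage gene on the higher side (4.76%, beside 1.78% of all genes). On the lower side it gave 2 (9.52%, beside 2.91%). Without DOX/IgG1 1 no macrophage gene was higher at an unadjusted limma p below 0.05 and 3 were lower. Chemokine genes had a median of -0.16 (range -0.25 without IgG1 2 to -0.08 without DOX/IgG1 2), with 1 gene on the lower side at that limit (3.33%, beside 2.91% of all genes) and 4 without DOX/IgG1 1, where the lower genes over all tested also went from 429 to 654. Complement genes outside C1q had -0.14 (range -0.24 without DOX/IgG1 3 to -0.02 without DOX/IgG1 2). Dendritic cell genes had -0.09 (range -0.25 without DOX/IgG1 1 to -0.02 without DOX/IgG1 2), and neutrophil genes -0.12 (range -0.14 without DOX/IgG1 3 to 0.06 without IgG1 1). Cxcl16, a chemokine made by macrophages and epithelium, was 92.3, 63.2 and 77.7 TPM against 65.6, 59 and 62.7 TPM, and 119, 76.2 and 82.5 TPM against 47.4, 58.6 and 48.6 TPM with doxorubicin. Its groups overlapped without doxorubicin and lay apart with it. The complement protease gene C1s1 differed by -0.59 ± 0.26 (SE). Exons of Cxcl16 and of C1s1 overlap genes on the other strand.

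Interferon response genes pointed in opposite directions in the arms. Of 43 interferon response genes, 34 were higher without doxorubicin and 14 with it. The medians were 0.23 and -0.23, or -0.08 with doxorubicin when DOX/IgG1 1 was left out, and the additive median was 0.02 (range -0.06 without IgG1 1 or anti-PD-1 1 to 0.08 without DOX/anti-PD-1 3), and 7 of the 43 had an unadjusted limma p below 0.05 for the interaction. Over all genes tested that number was 694 (4.71%), 333 with a positive (2.26%) and 361 with a negative sign (2.45%). The higher values without doxorubicin came largely from anti-PD-1 1, whose mean over the list was 5.37 beside 4.60 to 4.76 in the 5 other tumors of that arm. Mx1, an antiviral GTPase, was the exception that held its order in both arms, at 7.79, 12 and 7.59 TPM against 42.3, 12.1 and 18.3 TPM, and at 16, 13.8 and 10.5 TPM against 18.5, 24.2 and 20 TPM with doxorubicin. The groups were apart by as little as 12.1 against 12 TPM. Its exact permutation p of 0.005 (adjusted 0.847) is that of all 87 genes apart in both arms and only restates this order. Gbp5, another interferon-induced GTPase, differed by -0.80 ± 0.34 (SE), and without DOX/IgG1 1 no gene of the list was lower at an unadjusted limma p below 0.05. MHC class I genes had a median of -0.13 (range -0.18 without IgG1 2 to -0.04 without DOX/anti-PD-1 3), with 0.01 without and -0.34 with doxorubicin, and MHC class II genes had -0.17 without and -0.19 with it, with an additive median of -0.17 (range -0.29 without DOX/IgG1 1 to -0.07 without DOX/IgG1 3). Without DOX/IgG1 1 their median with doxorubicin was -0.59. The IL-12 family list, which includes its receptors and STAT factors, had a median of -0.09 (range -0.15 without IgG1 3 to -0.04 without DOX/anti-PD-1 1). Of its 12 genes 8 were lower and 33.3% were higher, beside 45.6% of all genes.

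Stromal genes were mostly lower with anti-PD-1 in the arm without doxorubicin, and what they showed in the other arm depended on DOX/IgG1 1. Of 26 fibroblast and matrix genes, 25 were lower without doxorubicin and 7 with it, and 0 were higher in both arms while 6 were lower in both. The medians were -0.38 and 0.28. Without DOX/IgG1 1 the median with doxorubicin was -0.04, 21 of the 26 were lower in the additive model, and genes on the lower side at an unadjusted limma p below 0.05 went from 1 to 6, while over all genes tested they went from 429 to 654. Col1a1, the main fibrillar collagen gene, was 432, 527 and 745 TPM against 238, 234 and 132 TPM without doxorubicin and 149, 339 and 274 TPM against 220, 488 and 525 TPM with it. The groups were apart in the first arm and overlapped in the second, with log2 fold changes of -1.50 and 0.67. Timp3, a metalloproteinase inhibitor bound to the matrix, was the gene of this list with an unadjusted limma p below 0.05 over both arms, at -0.93 ± 0.23 (SE), and its exons overlap Syn3 on the other strand. It was lower in all 3 DOX/anti-PD-1 tumors and overlapped without doxorubicin.

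Endothelial genes had medians of -0.29 and 0.18, adipocyte genes of -0.47 and 0.28 and skeletal muscle genes of -0.64 and 0.37 without and with doxorubicin. Without DOX/IgG1 1 the medians with doxorubicin were -0.05, -0.08 and 0.03 in the same order. Kdr, the VEGF receptor of endothelium, differed by -0.45 ± 0.21 (SE). Luminal epithelial genes had an additive median of -0.13 (range -0.24 without DOX/IgG1 1 to -0.07 without IgG1 1), and basal and myoepithelial genes of 0.01 (range -0.24 without DOX/IgG1 1 to 0.15 without DOX/IgG1 3). Glutamine and glutamate genes had -0.05 (range -0.12 without DOX/IgG1 2 to 0.02 without anti-PD-1 1), with 1 gene on the lower side at an unadjusted limma p below 0.05 (3.85%) and 4 without DOX/IgG1 1. In this list Slc3a2, the heavy chain of amino acid exchangers, was the gene at an unadjusted limma p below 0.05, with -0.48 without and -0.47 with doxorubicin. Keratinocyte and hair follicle genes had a median of 1.45 without and -0.29 with doxorubicin, or -0.62 with it when DOX/IgG1 1 was left out. Krt10, a keratin of differentiating epidermis, was listed at 0, 2.01 and 1 TPM against 3.88, 9.59 and 8.6 TPM, and at 0, 0 and 4.81 TPM against 7.42, 3.19 and 0.81 TPM with doxorubicin. The groups were apart without doxorubicin and overlapped with it.

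Erythroid genes were lower, with a median of -1.18 over 6 tested, and 5 of the 6 were lower in both arms. Without DOX/IgG1 1, the tumor with the highest sum, the median was -0.41, and it was 0.25 within the doxorubicin arm. Hbb-bt, the gene of this list with an unadjusted limma p below 0.05, was listed at 21.9, 3.28 and 11.9 TPM with IgG1, at 0 in all 3 anti-PD-1 tumors, at 89.9, 9.42 and 0 TPM with DOX/IgG1 and at 5.28, 22.3 and 0 TPM with DOX/anti-PD-1. Its groups were apart without doxorubicin and overlapped with it, and without DOX/IgG1 1 no gene of the list passed that limit. The amount of blood in the sampled tissue was not measured, and its part in these values was not tested.

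**Figure D5:**
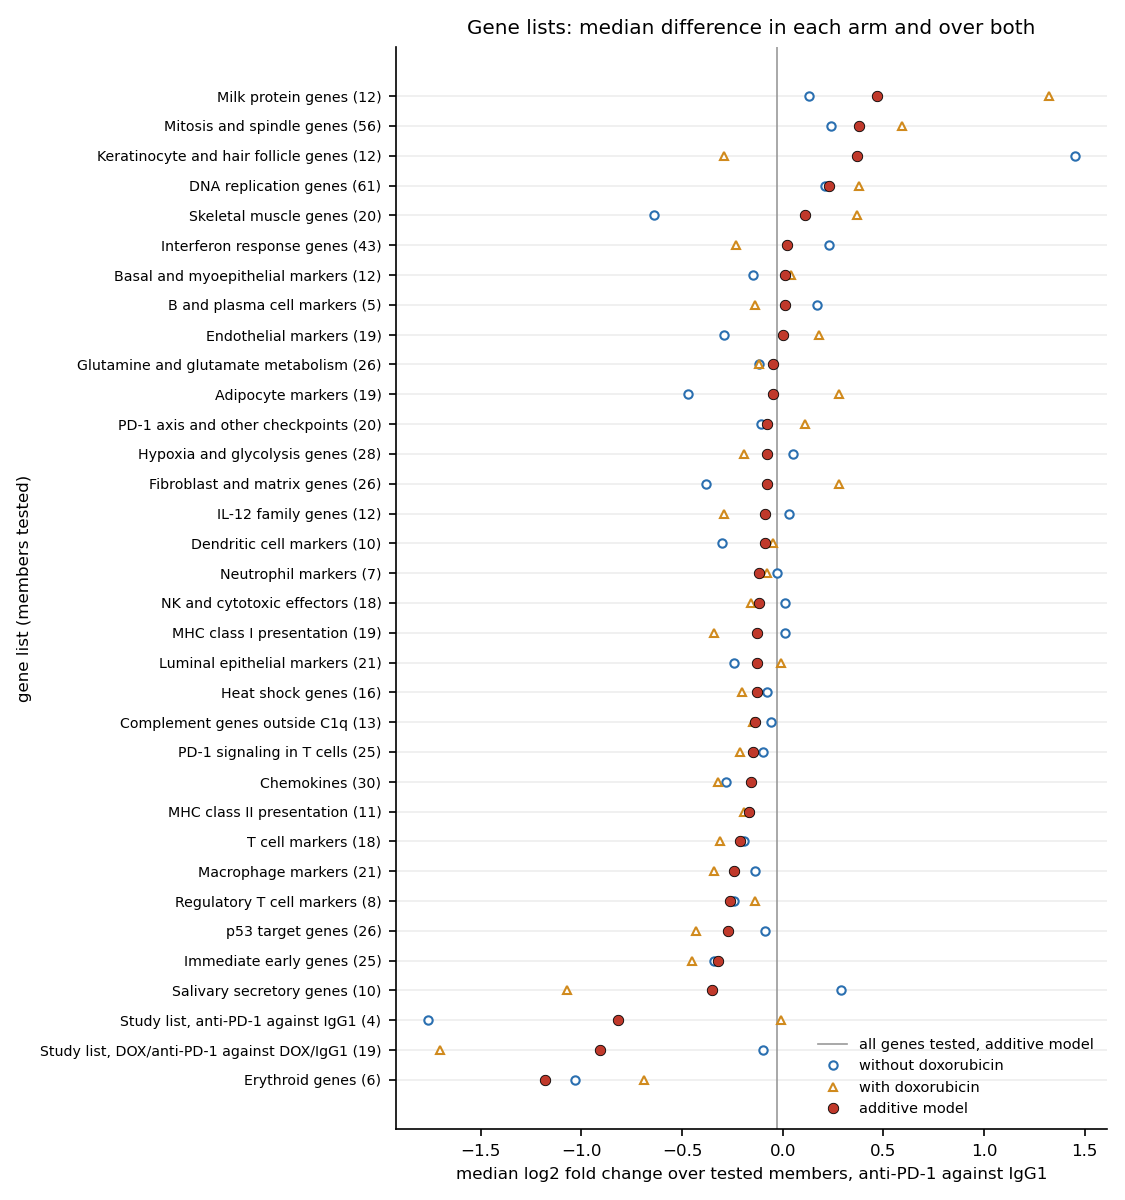
Median log2 fold change of anti-PD-1 against IgG1 over the tested members of 34 gene lists (number tested in brackets), in the additive model (red), without doxorubicin (open circles) and with it (open triangles). The grey line is the median of all genes tested, -0.03. Replication, mitosis and immediate early genes keep their side in both arms, while keratinocyte and interferon lists change side.

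Genes that the study called in a single arm were followed into the other. The study called them with DESeq2 at the same limits, whereas limma on log2(TPM + 1) called 2 genes with and 0 without doxorubicin. These lists were chosen by the study on the same tumors, so within their own arm they are not independent evidence, and choosing genes by 1 arm in itself favors a difference between the arms. For the 19 genes called by the antibody comparison within the doxorubicin arm, the median was -1.70 with doxorubicin and -0.10 without it, 10 were lower in both arms and 2 higher in both. Igfbp4 and Fxyd2, described above, lay apart in both arms. Ptn, the growth factor pleiotrophin, was 162, 92.8 and 281 TPM against 103, 65.4 and 89 TPM without doxorubicin, overlapping, and 158, 292 and 441 TPM against 93.8, 69.4 and 117 TPM with it, apart. Prelp, a matrix proteoglycan, likewise had -0.62 without and -1.39 with doxorubicin. Of the genes higher in that list, Col9a1, a collagen chain, had 0.43 and 1.74, Tmc5, a membrane protein of epithelia, 0.52 and 1.83, and Megf6, which encodes a protein with EGF-like repeats, -1.14 and 1.89, so that its direction differed between the arms.

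The 4 genes that the study called between anti-PD-1 and IgG1 tumors had a median of -1.76 without doxorubicin and -0.01 with it. It was 0.30 with doxorubicin when DOX/IgG1 1 was left out. Glul, glutamine synthetase, with exons overlapping Mir8114 on the same strand, stood at 138, 96.1 and 276 TPM against 41.4, 29.2 and 36.8 TPM without doxorubicin, where the groups were apart. With doxorubicin it was 53.6, 330 and 333 TPM against 112, 157 and 489 TPM, where they overlapped. Gm21887 had log2 fold changes of -1.44 and 0.09, Hhipl2 of -2.35 and -0.11, and Spag5, a spindle protein, of 1.47 and -0.40.

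The interaction itself was called for 1 gene (0.00679% of those tested), and the comparison within the doxorubicin arm for 2 (0.0136%), both in limma. No gene was called without doxorubicin (0%), where limma gave 442 genes at an unadjusted p below 0.05, and where an exact permutation test of 3 against 3 tumors cannot reach that limit. Both genes called with doxorubicin are made by salivary glands, and both passed the filter through the 3 DOX/IgG1 tumors. When 6 tumors had to reach 1 TPM neither gene was tested, and from the 6 tumors of the arm alone neither was called. Bpifa2 was listed at 14.4, 21.3 and 53.7 TPM in DOX/IgG1 tumors and at 0 in the other 9 tumors, and it is also the gene called for the interaction. That call was lost at a pseudocount of 0.1, after scaling, with the replicate block, and whenever a tumor other than DOX/IgG1 1 was left out. Its adjusted p of 0.0909 in limma cannot pass a limit of 0.05. Smr3a, which overlaps Gm28434 on the same strand, was listed at 16.6, 10.2 and 14.8 TPM in DOX/IgG1 tumors, at 2.76 TPM in anti-PD-1 3 and at 0 in the other 8, and its call was also lost at a pseudocount of 0.1 and without DOX/IgG1 3 or DOX/anti-PD-1 2. The salivary list as a whole had a median of 0.29 without and -1.07 with doxorubicin, and its sum ranged from 83.5 to 408 TPM in DOX/IgG1 tumors and from 89.5 to 354 TPM in DOX/anti-PD-1 tumors, overlapping. Its most abundant gene was Car6, and how much salivary tissue was sampled was not tested. The comparison within the doxorubicin arm called 25 genes without DOX/IgG1 1, 5 without DOX/anti-PD-1 3, 4 without DOX/anti-PD-1 1 and 1 without DOX/IgG1 3 or DOX/anti-PD-1 2.

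Among genes with a mean of at least 5 TPM, Lgr6 and Cpt1b followed Bpifa2 by p for the interaction in limma, and neither was called. Lgr6, a receptor for R-spondins that marks some epithelial stem cells, was 53.5, 34.7 and 56.2 TPM against 24.6, 28.2 and 26.1 TPM without doxorubicin and 11.9, 20.8 and 27.4 TPM against 43.1, 73.1 and 68.7 TPM with it. The groups were apart in both arms in opposite directions, -0.82 and 1.61 on the log2 scale, which left 0.40 ± 0.39 (SE) in the additive model, or 0.12 without DOX/IgG1 1. Cpt1b, the muscle carnitine palmitoyltransferase, behaved alike, with -2.04 and 2.40, and its exons overlap Gm44502 on the same strand.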

How the data were processed

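Whole-tumor RNA of 12 tumors was analysed from the processed files alone. By the submitters' processing notes and the study's methods, the authors trimmed reads with skewer, ran STAR against mm10 and then RSEM for gene values, within SeqBox, with versions not given in the sources used here. The deposited values are log2(TPM + 1), 1 tumor per file, and were turned back to TPM for display. Read counts were not used here, so depth and its precision are unknown. Whether counting used the strand is not stated, and gene overlaps were read from GENCODE vM21, which matched 21860 of the 21960 genes.

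Genes with at least 1 TPM in at least 3 of 12 tumors were tested on the log2(TPM + 1) scale with limma 3.58.1 in R 4.3.3, with eBayes and a mean-variance trend. The additive model held doxorubicin and antibody, and a model of the 4 groups gave each arm and the interaction. Benjamini-Hochberg adjusted p below 0.1 with an absolute log2 fold change above 1 was the limit. The exact permutation exchanged antibody labels within arms (400 assignments). Tables and figures used Python 3.11.15, pandas 2.3.3, numpy 2.4.6 and matplotlib 3.10.9, and the fit was tested on simulated data. Replicate numbers did not pair tumors, since differences from the group mean correlated with r from -0.10 to 0.09 between tumors of the same number.

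Named genes were the 12 of smallest additive p per direction among those apart in both arms with a mean of at least 5 TPM. From each of 34 lists up to 4 tested members were named, those of smallest additive p in the list. The 3 of smallest interaction p at that mean, PD-1 and its ligands, the genes of the study's lists and cell-type markers were named as well. The members and lists were chosen with earlier results of these data known. Alternatives were another pseudocount (0.1), other filters, median-of-ratios scaling, no covariate, a replicate block, other variance models, other limits, the 6 tumors of an arm alone, and each tumor left out in turn.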

Additional observations from a re-analysis of the deposited data

Results flagged for a closer look

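The antibody difference of Bpifa2 with doxorubicin minus that without was -4.73 on the log2 scale (limma, Benjamini-Hochberg adjusted p 0.0909). The gene was listed at 0 in 9 tumors and passed the filter through the 3 DOX/IgG1 tumors, so the size depends on the pseudocount: its difference with doxorubicin was -4.73 at 1 and -8.00 at 0.1, where the interaction was no longer called.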

How the results depend on the processing

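The additive model called 0 genes under all 22 settings tried, with a smallest adjusted p of 0.142 (limma). Without doxorubicin, 0 genes became 3 with no filter, 1 after scaling, 2 without trend and 0 to 2 when 1 tumor was left out. With doxorubicin, 2 became 1 at pseudocount 0.1, 4 with no filter, 0 when 6 tumors had to reach 1 TPM, 0 from the 6 tumors of the arm alone, and 1 to 25 when 1 tumor was left out (25 without DOX/IgG1 1). The interaction call was 0 at pseudocount 0.1, 0 when 6 tumors had to reach 1 TPM, 0 after scaling, 0 at an adjusted p below 0.05, 3 with no filter, 3 without trend and 0 to 1 when 1 tumor was left out. When 6 tumors had to reach 1 TPM, Bpifa2 and Smr3a were not tested, so the filter alone removed their calls. Replicate numbers do not pair the tumors, and with the replicate block 0 genes were called in the additive model, 0 without doxorubicin, 2 with it and 0 for the interaction. When 1 tumor was left out, genes at an unadjusted p below 0.05 numbered 199 to 341 higher and 347 to 654 lower, exact permutation gave 619 to 914, and genes apart in both arms numbered 44 to 71 higher and 75 to 146 lower, where fewer tumors have to lie apart. Replication genes at that p then numbered 7 to 13 and mitosis genes 4 to 12. List medians then ranged from 0.18 to 0.34 for replication, 0.20 to 0.52 for mitosis, 0.29 to 0.76 for milk and -0.38 to -0.14 for immediate early genes. Of 73 named genes, 2 changed sign: Cd274 (0.01 after scaling, -0.12 to 0.09 with 1 tumor left out) and Cpt1b (-0.34 to 0.59). Alternatives for the permutation, the genes apart, the lists and the counts at an unadjusted p were chosen after seeing the data. Apart from the number of tumors, the cause was not tested. Depth is unknown.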
